A study of Mus musculus with 6 samples.

Results

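The genes described here encode the proteins of the mitochondrial ribosome. They were all rows of the deposited tables named Mrpl or Mrps followed by digits and at most 1 further letter, and pseudogene names were left out. This gave 78 of 43074 gene names, 49 of the large subunit (Mrpl) and 29 of the small subunit (Mrps) by name. RNA was measured by poly(A)-selected, paired-end sequencing in soleus, a postural hindlimb muscle of mouse rich in oxidative fibres. The study compared 3 libraries labelled WT with 3 labelled mKO, the label for the muscle knockout of StarD7. StarD7 carries phosphatidylcholine to mitochondria. The series text gives 3 mice per group, but which library came from which animal is not labelled. The p-values here describe only the spread among these 6 libraries, which may be technical. The age and sex of the mice, the alleles behind WT and mKO and the promoter that drives the deletion were not stated in the labels.

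The mitochondrial ribosome, or mitoribosome, makes the few proteins that mitochondrial DNA encodes, all of them core subunits of the respiratory chain and ATP synthase. Its 2 rRNAs are transcribed from mitochondrial DNA, while every one of its proteins is encoded in the nucleus, made in the cytosol and imported. The small subunit binds the mRNA and reads its codons, and the large subunit joins the amino acids and holds the exit tunnel near the inner membrane. Some of the proteins have counterparts in the bacterial ribosome, and others are found only in mitochondria. Muscle that relies on oxidative metabolism needs this machinery, and inherited defects in several of the proteins cause mitochondrial disease.

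The deposited unit was TPM, which corrects each gene's reads for its length and brings every library to one common total, so levels of different genes can be compared per length. Whole reads could be worked out from TPM and exon length for 93.13% of 22729 genes, including all 78 members, and came to between 42928382 and 51287715 per library. Stard7 stood at 87.5, 95.4 and 95 TPM in WT and at 21.8, 21.3 and 34.6 TPM in mKO (log2 fold change −1.83, SE 0.16, adjusted p = 0.00585, limma). The adjusted p of Stard7 was 0.0703 when WT replicate 2 was dropped and 0.0858 when low genes were kept, both above the threshold of 0.05. Its mean in mKO was 25.9 ± 7.5 TPM against 92.6 ± 4.41 TPM in WT (SD, n = 3), so part of the transcript was still measured in whole muscle. All 8 muscle fibre markers, among them Acta1 and Ckm, were detected in every library, and their summed level was 68915 to 73748 TPM in WT and 61979 to 64931 TPM in mKO. Of these 8, Ryr1 was called lower (log2 fold change −0.38, adjusted p = 0.0478, limma), and 4 were lower without overlap of the groups, as were 10.3% of all tested genes. By value 6 were below 0 and 2 above, Myh7 (0.24) and Tnnt1 (0.23). Once mitochondrially encoded genes were removed before scaling, 0 of the 8 were called. With scaling by median of ratios or upper quartile 0 were called, and by limma-voom 2. The 10 fast fibre markers summed to 40367 to 46285 TPM in WT and 23953 to 31113 TPM in mKO, and every one of the 10 was lower without overlap, with a median log2 fold change of −2.33. Mybpc2 (−6.73), Pvalb (−5.87), Actn3 (−4.08) and Tnnc2 (−0.49) were called lower by limma, and the fast myosins Myh4 (−4.73) and Myh1 (−4.03) were not called. Of the 9 slow fibre markers 8 were above 0, with a median of 0.24, and Pln was called higher (1.52, adjusted p = 0.000742). The 8 endothelial markers summed to 257 to 259 TPM in WT and 241 to 249 TPM in mKO, with none called by limma (1 at an unadjusted p under 0.05) or limma-voom. By value 5 of them were below 0 and 3 above, with a median of −0.08. That median was 0.04 once mitochondrially encoded genes were removed before scaling. Of 8 tested handling stress markers 0 were called by limma, and of 7 tested by limma-voom 0 were called. By limma 4 of the 8 had an unadjusted p under 0.05, where 10.7% of all tested genes did. Without overlap of the groups 3 of the 8 were higher and 1 was lower, where 5.67% and 10.3% of all tested genes were. The summed levels of slow fibre, macrophage, fibroblast, adipocyte, Schwann cell, satellite cell, erythroid and handling stress markers overlapped between the groups. No marker was at 0 in any library. The part of these differences in the results below was not tested. In bulk tissue, fewer cells of a type and less RNA per cell cannot be told apart.

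All 78 members were expressed in every library, at mean levels that spanned 23.3 times although the ribosome holds about 1 copy of most of its proteins. Each passed the filter of at least 1 TPM in at least 3 libraries. The median member stood at 32 TPM, against 8.44 TPM for the median tested gene. By subunit, the median was 33.3 TPM for the large and 22.1 TPM for the small.

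The most abundant member was Mrpl12, a protein of the stalk that recruits translation factors. It stood at 139, 144 and 143 TPM in WT and at 130, 137 and 132 TPM in mKO. Mrps21, a small protein of the small subunit with a bacterial counterpart, came next at 139, 147 and 137 TPM in WT and 132, 128 and 123 TPM in mKO. In both genes every mKO library lay below every WT library. Mrpl18 (mean 130 TPM over the 6 libraries), Mrpl14 (115 TPM), Mrpl53 (112 TPM), Mrpl2 (108 TPM) and Mrps23 (105 TPM) were the other members above 100 TPM. In the small subunit Mrps28 (79.6 TPM) and Mrps36 (73.1 TPM) followed Mrps23.

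The lowest levels were those of Mrps35, found only in mitochondrial ribosomes, at 5.73, 6.14 and 5.52 TPM in WT and 6.02, 6.48 and 5.49 TPM in mKO, and of Mrps10, at 6.56, 6.32 and 6.10 TPM in WT and 5.57, 6.93 and 6.13 TPM in mKO. Their groups overlapped. In the large subunit the lowest were Mrpl13 (mean 8.87 TPM) and Mrpl32 (9.49 TPM). The members held between 492 and 7248 reads per library, with a median of 1504. Counting alone gives an SD of 0.04 on the log2 scale at the median and 0.07 at the lowest of these, or 0.05 and 0.09 if a read pair was counted as 2 reads.

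**Figure D1:**
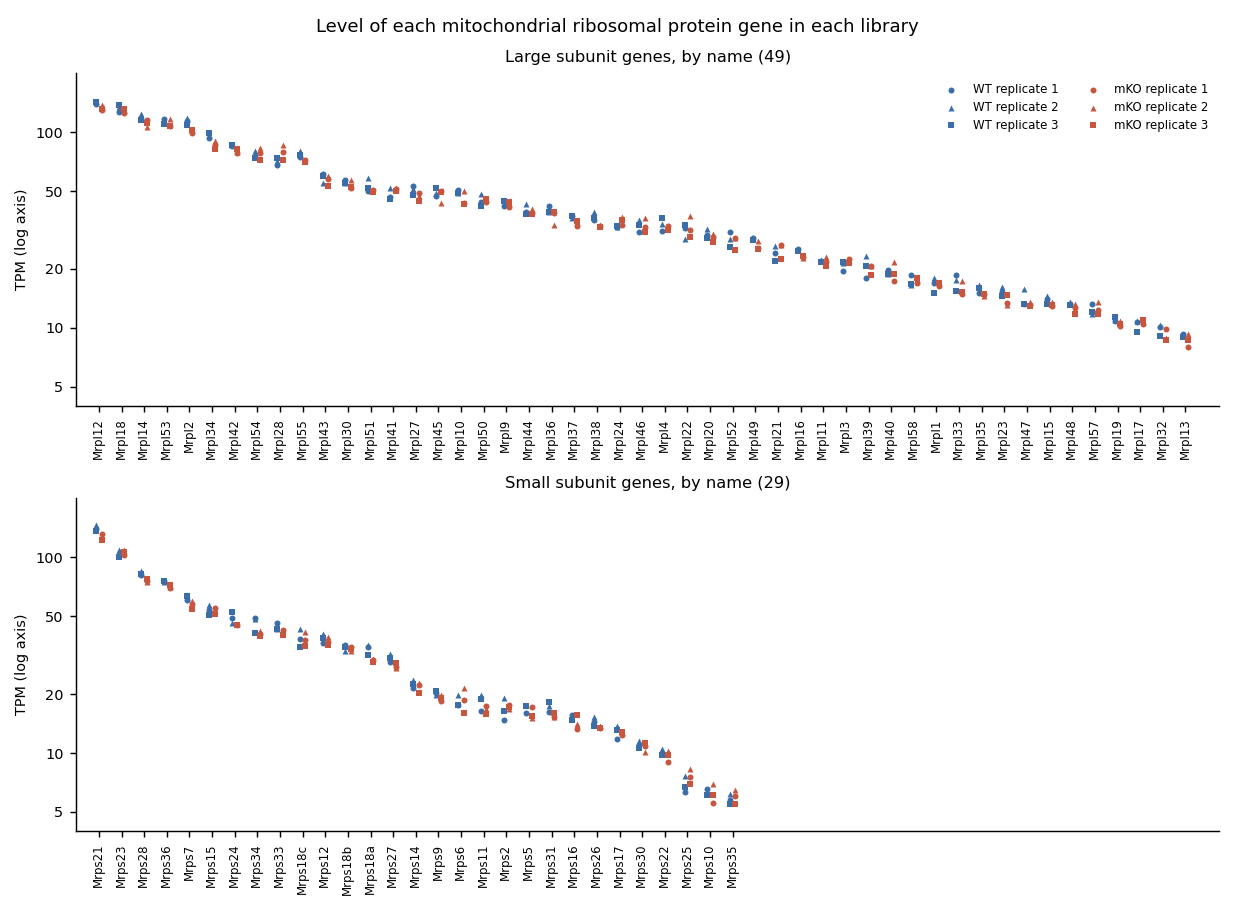
Level of each member in TPM (log axis) in the 3 WT (blue) and 3 mKO (red) libraries, large subunit above and small subunit below, ordered by mean level. The order from Mrpl12 (mean 137 TPM) to Mrps35 (5.90 TPM) covers 23.3 times, far more than the distance between the groups for any member.

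Members varied little between libraries of a group. The median within-group SD was 0.07 on the log2(TPM + 1) scale, against 0.09 for the 6817 other tested genes of the same range of levels. Over the 78 members the log2 fold change and the log2 mean level had a Pearson r of −0.19, given as a description, since all values come from the same 6 libraries.

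Summed over all members, the level was 3174, 3289 and 3167 TPM in WT and 3060, 3145 and 3012 TPM in mKO, so each mKO library lay below each WT library. The large subunit genes summed to 2138, 2206 and 2138 TPM in WT and to 2067, 2138 and 2037 TPM in mKO. The small subunit genes summed to 1036, 1083 and 1029 TPM in WT and to 993, 1007 and 975 TPM in mKO. The ratio of the large to the small sum was 2.06, 2.04 and 2.08 in WT and 2.08, 2.12 and 2.09 in mKO. The highest WT and the lowest mKO ratio were alike at this rounding, and no mKO ratio was below a WT ratio. The difference in this ratio was not tested.

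The direction of the sum turned with the denominator. Mitochondrially encoded transcripts took 43.5%, 42.1% and 45.1% of all TPM in WT and 48.9%, 46.8% and 48.2% in mKO. As a share of the remaining, nuclear-encoded TPM, the members made up 0.562%, 0.568% and 0.577% in WT and 0.599%, 0.592% and 0.582% in mKO, so that on this scale each mKO library lay above each WT library. With mitochondrially encoded genes left out, the median log2 fold change was above 0 for all tested genes too (0.09), and that of the members was 0.05. The sums and shares are scores over the members and carry no test. For every TPM of member mRNA there were 135, 126 and 140 TPM of mitochondrially encoded mRNA in WT and 157, 146 and 157 TPM in mKO.

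**Figure D2:**
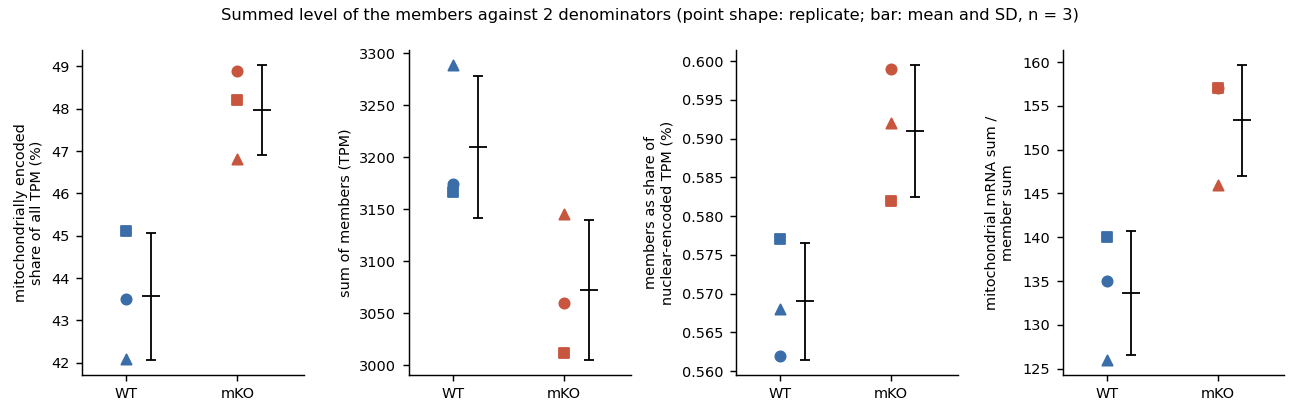
Share of TPM that is mitochondrially encoded (%), sum of the 78 members (TPM), members as a share of nuclear-encoded TPM (%), and ratio of the summed mitochondrially encoded mRNA to the summed members. Points are libraries (the shape gives the replicate number) and bars are mean and SD with n = 3. The axes do not start at 0. The members' sum is lower in mKO (3012 to 3145 against 3167 to 3289 TPM) while their share of nuclear-encoded TPM is higher (0.582% to 0.599% against 0.562% to 0.577%). With mitochondrially encoded genes left out, the median log2 fold change was 0.09 for all tested genes and 0.05 for the members.

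No member differed between mKO and WT beyond the spread between libraries after adjustment. By limma, 0 of the 78 members were called in either direction (smallest adjusted p = 0.296, for Mrps18a), where 0.0976% of the 12301 tested genes were called higher and 0.423% lower. At an unadjusted p under 0.05, 7 members passed, all of them lower in mKO, which is 8.97% of the members against 10.7% of all tested genes. Limma-voom on the recovered reads also called 0 members, with 3 under that unadjusted threshold. The changes were small: log2 fold changes (mKO minus WT, computed from log2(TPM + 1)) lay between −0.19 and 0.16, and no 95% interval reached beyond −0.35 or 0.33. When the mitochondrially encoded genes were removed before scaling, the calls over all genes changed from 12 higher and 52 lower to 21 higher and 20 lower, and still no member was called.

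On deposited TPM most members stood slightly lower in mKO in value, and this did not hold on every scale. Of the 78, 60 had a log2 fold change below 0 (76.9%, against 55.1% of all tested genes), with a median of −0.06 against −0.01 for all tested genes. Below 0 were 40 of 78 by limma-voom (4253 of 11204 genes), and 16 of 78 without the mitochondrially encoded genes (3080 of 13502 genes). In 22 members every mKO library lay below every WT library, where 10.3% of all tested genes did so, and in 1, Mrpl24, every mKO library lay above, where 5.67% did so. Under scaling by median of ratios these counts were 14 and 1, where 9.36% of 12310 genes were lower and 7.75% higher. On TPM rescaled after removal of all mitochondrially encoded genes they turned to 0 lower and 16 higher, beside 2.71% lower and 23.9% higher among the 13502 genes then tested.

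The medians of the large and small subunits differed by no more than the spread between single libraries, and their difference was not tested. Of the 49 large subunit genes 36 were below 0, with a median log2 fold change of −0.05, and 12 were lower and 1 higher without overlap of the groups. Of the 29 small subunit genes 24 were below 0, with a median of −0.08, and 10 were lower without overlap. Over all tested genes 55.1% were below 0, 10.3% were lower without overlap and 5.67% were higher without overlap. Scaled by median of ratios, 8 large and 6 small subunit genes were lower and 1 large was higher (9.36% and 7.75% of all genes). Without the mitochondrially encoded genes 0 were lower, and 12 large and 4 small were higher (2.71% and 23.9% of all genes). The difference between the medians, large minus small, was 0.03, which equals the SD of that difference between libraries of a group (0.03). With the subunits taken by the place of the protein in the ribosome (51 and 26 genes) it was 0.02, and without mKO replicate 1 it was −0.01, the opposite direction.

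**Figure D3:**
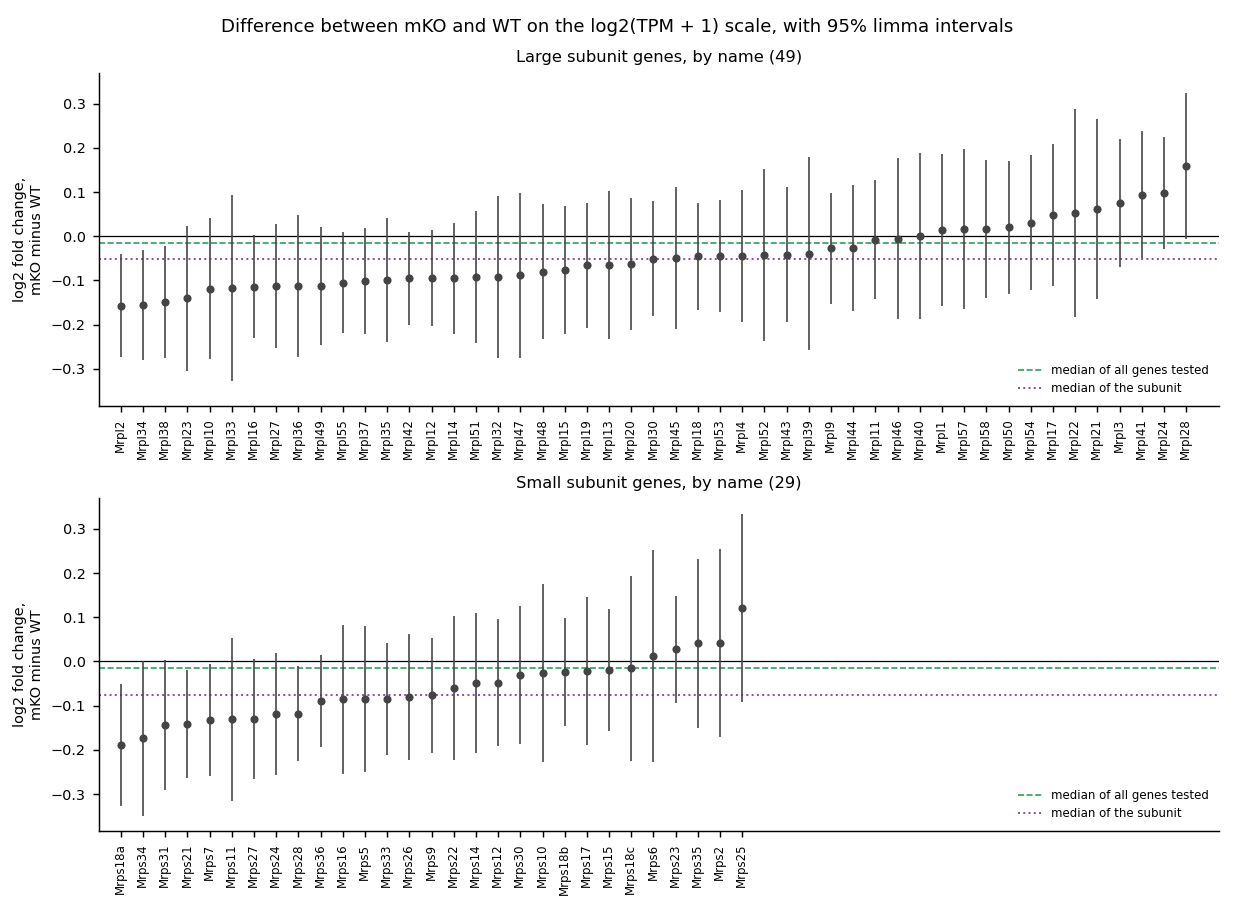
Log2 fold change of each member, mKO minus WT, with its 95% limma interval, large subunit above and small subunit below. Lines mark 0, the median of all genes tested (−0.01, dashed) and the median of the subunit (−0.05 and −0.08, dotted). All intervals but 7 cover 0, and the points form a continuous range from −0.19 to 0.16. Without the mitochondrially encoded genes both subunit medians are above 0 (0.07 and 0.04).

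The direction of both medians depended on the scaling. Their distance to the median of all genes could hardly change with it, since rescaling a library shifts all nuclear genes about alike. Once mitochondrially encoded genes were removed, the medians were 0.07 for the large and 0.04 for the small subunit, above 0, while the median of all genes moved to 0.09. On reads, by limma-voom, they were 0.00 and −0.03 beside 0.04 for all genes. Relative to the median of all genes, the members' median was −0.05 as reported, −0.04 with mitochondrially encoded genes left out, and −0.05 with scaling by median of ratios, with upper-quartile scaling and on reads. Without the filter on low values it was −0.06, and leaving out each library in turn gave −0.07 to −0.04.

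**Figure D4:**
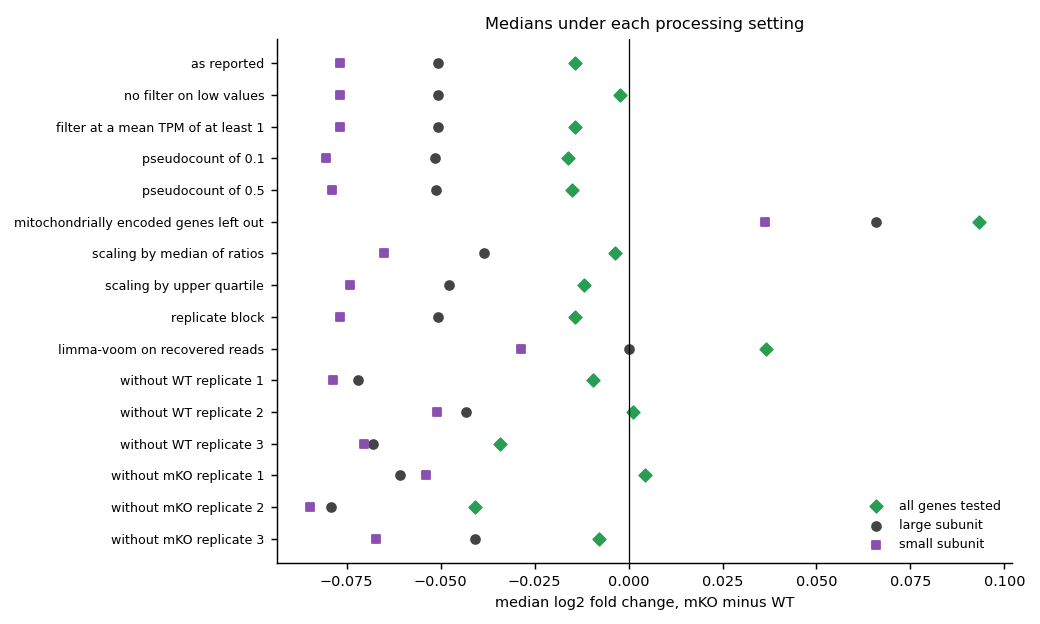
Median log2 fold change (mKO minus WT) of all genes tested, the large and the small subunit under each processing setting. All 3 medians move to the right when mitochondrially encoded genes are left out (0.09, 0.07 and 0.04). Both subunits lie to the left of all genes in each setting drawn, an order that the rescalings could hardly change.

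Among the large subunit genes the smallest unadjusted p was that of Mrpl2, which builds part of the peptidyl transferase region and has a bacterial counterpart. It stood at 114, 118 and 109 TPM in WT and at 98.8, 103 and 103 TPM in mKO, which is 89.5% of the WT mean (log2 fold change −0.16, SE 0.05, adjusted p = 0.303). Mrpl34, a very small protein with a bacterial counterpart, was at 93.8, 95.8 and 98.5 TPM in WT and 86.3, 90.4 and 81.8 TPM in mKO (−0.16, SE 0.05, adjusted p = 0.348). Mrpl38, which only the mitochondrial ribosome has, was at 35.5, 38.9 and 36.5 TPM in WT and 33.2, 33.7 and 32.7 TPM in mKO (−0.15, SE 0.06, adjusted p = 0.382). In these 3 genes the groups did not overlap, and the mKO mean was 89.5% to 89.9% of WT. Without the mitochondrially encoded genes their log2 fold changes were −0.04, −0.04 and −0.03. Mrpl16, at 25.3, 25.1 and 24.7 TPM in WT and 23, 22.8 and 23.3 TPM in mKO, had groups that did not overlap either, for a smaller difference (−0.11, adjusted p = 0.477), which was 0.00 without the mitochondrially encoded genes.

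The largest positive value was that of Mrpl28, a large subunit protein with a bacterial counterpart. It stood at 68.0, 71.4 and 73.5 TPM in WT and at 79.5, 86.4 and 72.4 TPM in mKO, 112% of the WT mean (log2 fold change 0.16, SE 0.07, adjusted p = 0.486). The lowest mKO library lay within the WT range, and without mKO replicate 2, the highest, the value was 0.10. Mrpl24, which sits near the exit of the tunnel, was at 32.9, 32.8 and 33.1 TPM in WT and 33.6, 36.9 and 35.4 TPM in mKO (0.10, SE 0.05, adjusted p = 0.593), the single member whose mKO libraries were all higher. Both values were larger without the mitochondrially encoded genes, 0.28 and 0.22, and neither was called.

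Among the genes named Mrps, Mrps18a had the lowest value, although its protein sits in the large subunit. It stood at 35.0, 35.5 and 31.8 TPM in WT and at 29.8, 30.1 and 29.3 TPM in mKO, 87.3% of the WT mean (log2 fold change −0.19, SE 0.06, adjusted p = 0.296). Mrps34, which is needed for a stable small subunit, stood at 48.9, 48.7 and 41.1 TPM in WT and 40.5, 42.0 and 39.7 TPM in mKO (−0.17, SE 0.08, adjusted p = 0.471). Its WT replicate 3 lay within the mKO range, and without it the value was −0.25. Mrps21, given above, was at −0.14 (SE 0.05, adjusted p = 0.386). Without the mitochondrially encoded genes Mrps18a was at −0.08, Mrps34 at −0.06 and Mrps21 at −0.02.

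Mrps28 was at 81.7, 85.0 and 81.8 TPM in WT and 75.9, 75.2 and 77.7 TPM in mKO (−0.12, SE 0.05, adjusted p = 0.415). Mrps7, which binds the rRNA of the small subunit, was at 60.6, 63.9 and 63.7 TPM in WT and 57.5, 59.6 and 54.5 TPM in mKO (−0.13, SE 0.05, adjusted p = 0.451). Neither gene's groups overlapped, and without the mitochondrially encoded genes their values were 0.00 and −0.02. The highest value of the subunit was that of Mrps25, low in level among the members. It stood at 6.34, 7.61 and 6.70 TPM in WT and 7.51, 8.29 and 6.92 TPM in mKO (0.12, SE 0.09, adjusted p = 0.709), and its groups overlapped. Its value was 0.06 without mKO replicate 2, 0.07 without WT replicate 1 and 0.19 without WT replicate 2. Mrps2 followed at 0.04 (adjusted p = 0.917), and without WT replicate 1 its value was −0.04.

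The names do not always give the place of the protein. Mrps18a, Mrps18b and Mrps18c are paralogues that occupy different sites, Mrps18a in the large subunit and the other two in the small subunit. Their transcripts were at similar levels, with means of 31.9, 34.4 and 38.5 TPM over the 6 libraries. Mrps18b stood at 35.7, 33.3 and 35.0 TPM in WT and 34.8, 33.3 and 34.2 TPM in mKO (log2 fold change −0.02, 95% interval −0.15 to 0.10). Mrps18c stood at 38.1, 43.2 and 35.0 TPM in WT and 37.8, 41.7 and 35.4 TPM in mKO (−0.02, interval −0.22 to 0.19). The interval of Mrps18a was −0.33 to −0.05, so the 3 intervals overlapped, and the difference between the paralogues was not tested.

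Mrps30 is also part of the large subunit despite its name. It was at 11, 11.5 and 10.6 TPM in WT and 10.9, 10.1 and 11.2 TPM in mKO (−0.03, adjusted p = 0.917), with overlapping groups. Mrps36 is now known as a component of the 2-oxoglutarate dehydrogenase complex and not of the ribosome. It stood at 75.5, 75.1 and 75.7 TPM in WT and 69.9, 70.5 and 72.2 TPM in mKO, without overlap (−0.09, SE 0.05, adjusted p = 0.554).

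The members were also divided into proteins with a bacterial counterpart and proteins found only in mitochondria, and the difference between these classes was not tested. Of the 46 former genes 37 were below 0, with a median of −0.07, and 13 were lower without overlap of the groups. Of the 29 latter genes 20 were below 0, with a median of −0.04, and 7 were lower without overlap. Over all tested genes 55.1% were below 0 and 10.3% were lower without overlap. Without the mitochondrially encoded genes 11 of the 46 and 4 of the 29 were below 0. Their median levels were 27.1 and 34.4 TPM. Both medians were above 0 without the mitochondrially encoded genes (0.04 and 0.07), and on reads by limma-voom they were −0.02 and 0.01. Of 16 members whose human counterparts are linked to inherited mitochondrial disease, 10 were below 0, with a median of −0.04 (0.07 without the mitochondrially encoded genes) and a range from −0.17 (Mrps34) to 0.12 (Mrps25). Among these, Mrpl44 was at 39.0, 42.9 and 38.1 TPM in WT and 38.8, 40.6 and 38.3 TPM in mKO, and Mrpl3 was at 19.5, 21.5 and 21.7 TPM in WT and 22.5, 22.3 and 21.4 TPM in mKO. The groups of both overlapped.

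Reads of some members could be shared with a neighbour. In GENCODE M21, 33 members have an exon that overlaps an exon of another gene, 28 of them on the other strand, and no source used here says whether counting used strand. Mrpl46 and Mrps11 overlap each other in this way. The 45 members without such overlap had a median log2 fold change of −0.05 and the 33 with overlap one of −0.07, which became 0.07 and 0.04 without the mitochondrially encoded genes. A further feature was that 23 members start head to head with another protein-coding gene. Of the 20 such partners that were tested 0 were called by limma (0 at an unadjusted p under 0.05, beside 10.7% of all tested genes). By limma-voom 0 were called (1 at that threshold). On deposited TPM 11 of the partners were below 0, beside 55.1% of all tested genes. Examples are Ndufs6, a complex I subunit opposite Mrpl36 (log2 fold change −0.09), Sars2, the mitochondrial seryl-tRNA synthetase opposite Mrps12 (−0.15), and Psma2, a proteasome subunit opposite Mrpl32 (0.00).

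Nuclear genes of mitochondrial translation are known targets of NRF1, of GABP (an ETS factor also called NRF2) and of YY1, so the promoters of the members were searched for the core letters that these factors prefer. RefSeq promoters (build GRCm38.p6, from 250 bases before to 50 bases after the start) matched 69 of the 78 members, with 75 windows. The letters were GCGCANGCG for NRF1, CCGGAAG for GABP and other ETS factors, and AAGATGGCG for YY1, on both strands. None of the 3 is contained in another. NRF1 letters were in 21.3% of the member windows, against 6.25% of all 32851 promoter windows and 13.0% of those of tested genes. ETS letters were in 34.7%, against 8.86% of all windows and 17.1% of those of tested genes. YY1 letters were in 10.7%, against 1.40% and 3.07%. At least 1 of the 3 was in 56.0% of member windows, against 14.8% of all windows and 29.2% of those of tested genes. A match describes letters and does not show that a factor binds there.

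The 4 windows below are those of the member with the lowest log2 fold change (Mrps18a), of the most abundant member of each subunit (Mrps21 and Mrpl12) and of the member with the highest log2 fold change (Mrpl28). They are printed 5′ to 3′ on the strand of the gene, with capitals for the letters found. They lie at chr17:46110754-46111053 (plus strand), chr3:95871465-95871764 (minus strand), chr11:120484387-120484686 (plus strand) and chr17:26123253-26123552 (plus strand) in GRCm38.p6.
Mrps18a: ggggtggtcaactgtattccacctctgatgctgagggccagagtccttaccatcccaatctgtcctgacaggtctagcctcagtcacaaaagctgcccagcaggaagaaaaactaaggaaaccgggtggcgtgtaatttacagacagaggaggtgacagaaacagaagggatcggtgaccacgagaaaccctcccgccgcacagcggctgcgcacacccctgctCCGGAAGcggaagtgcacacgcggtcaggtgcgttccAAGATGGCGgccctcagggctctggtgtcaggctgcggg
Mrps21: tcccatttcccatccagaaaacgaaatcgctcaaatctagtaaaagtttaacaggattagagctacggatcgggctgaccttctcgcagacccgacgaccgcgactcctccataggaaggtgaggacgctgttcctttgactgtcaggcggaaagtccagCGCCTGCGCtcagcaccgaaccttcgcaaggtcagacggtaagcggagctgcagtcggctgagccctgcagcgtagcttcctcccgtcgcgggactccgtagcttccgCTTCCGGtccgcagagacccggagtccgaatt
Mrpl12: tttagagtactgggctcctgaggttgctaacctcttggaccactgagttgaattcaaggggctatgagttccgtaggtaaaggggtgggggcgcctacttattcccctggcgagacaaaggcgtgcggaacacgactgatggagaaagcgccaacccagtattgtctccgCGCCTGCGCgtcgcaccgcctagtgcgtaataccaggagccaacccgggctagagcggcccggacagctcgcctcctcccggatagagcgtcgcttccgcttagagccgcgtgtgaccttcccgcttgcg
Mrpl28: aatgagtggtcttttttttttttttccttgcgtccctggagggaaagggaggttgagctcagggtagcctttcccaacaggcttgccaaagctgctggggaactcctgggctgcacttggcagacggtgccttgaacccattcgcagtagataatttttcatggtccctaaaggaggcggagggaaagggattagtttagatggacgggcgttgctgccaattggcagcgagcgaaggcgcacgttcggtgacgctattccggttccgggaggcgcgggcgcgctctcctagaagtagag

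Counted from the start of the gene, with no base 0, the window of Mrps18a holds ETS letters from base −26 and YY1 letters from base 12. Mrps21 holds NRF1 letters from base −90 and ETS letters from base 19, and Mrpl12 holds NRF1 letters from base −80, in each case read on the opposite strand. Mrpl28 has none of the 3. The members with any of the letters (42 genes) had a median log2 fold change of −0.08 and those with none (27 genes) one of −0.03. By factor the medians with and without the letters were −0.05 and −0.06 for NRF1, −0.05 and −0.06 for ETS, and −0.12 and −0.05 for YY1, the last resting on 8 genes. These medians are given on deposited TPM only. Over all 78 members the median was −0.06 on that scale and 0.05 without the mitochondrially encoded genes. The motifs were chosen with the members' values known, so the medians by motif are descriptions.

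Of 9 nuclear regulators, the factors themselves among them, 0 were called by limma, where 0.0976% of all tested genes were called higher and 0.423% lower. At an unadjusted p under 0.05 there were 0, against 10.7% of all tested genes. Limma-voom tested 8 of them and called 0. By value 7 of the 9 were below 0 (55.1% of all tested genes), with a median of −0.03. Without the mitochondrially encoded genes 0 of the 9 were below 0, with a median of 0.08. Nrf1 had a mean level of 3.25 ± 0.266 TPM in the WT libraries and 3.18 ± 0.249 TPM in the mKO libraries (SD, n = 3, as in the values that follow, WT before mKO). Gabpa was at 19.1 ± 1.65 and 19.4 ± 0.904 TPM, and Yy1 at 19.8 ± 0.644 and 19.7 ± 1.1 TPM. Ppargc1a, the coactivator PGC-1α that drives mitochondrial biogenesis, was at 26.2 ± 6.23 and 25.0 ± 6.08 TPM, the widest spread of these genes. At the spread of Ppargc1a the 95% interval of its log2 fold change ran from −0.52 to 0.40.

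The rest of the mitochondrial translation system also had no called nuclear gene. Among all tested genes 0.0976% were called higher and 0.423% lower, so 0 called in lists of this size says little. An unadjusted p under 0.05 was found for 10.7% of all tested genes, and 55.1% were below 0. By limma-voom 0 genes of the 5 groups that follow were called, with 17 translation factors and 12 transcription genes tested. In each of the 5 groups the median was above 0 (0.04 to 0.08) without the mitochondrially encoded genes. Of 5 subunit proteins with other names (Dap3, Chchd1, Aurkaip1, Ptcd3 and Gadd45gip1), all 5 were below 0, with a median log2 fold change of −0.04 (0 called, 0 at an unadjusted p under 0.05). Of 27 genes of ribosome assembly and rRNA modification 21 were below 0 (median −0.03, 0 called, 2 at that unadjusted threshold), and the smallest p was that of Mettl17, a factor of small subunit assembly, at 6.38, 6.29 and 5.73 TPM in WT and 5.13, 4.92 and 5.0 TPM in mKO (−0.25, SE 0.07, adjusted p = 0.265). Eral1, the chaperone of the small subunit rRNA, was at 20.9 ± 0.811 and 18.3 ± 0.826 TPM (−0.18, adjusted p = 0.334). In both genes each mKO library lay below each WT library. Of 18 tested translation factors and helpers 15 were below 0 (median −0.07, 0 called, 1 at that threshold), with Slirp, which stabilises mitochondrial mRNA, at 13.9 ± 0.319 and 12.2 ± 0.844 TPM (−0.18, adjusted p = 0.391). Of 20 mitochondrial aminoacyl-tRNA synthetase genes 15 were below 0 (median −0.04, 0 called, 0 at that threshold). Of 13 genes of mitochondrial transcription and RNA processing 9 were below 0 (median −0.04, 0 called, 0 at that threshold).

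Of the cytosolic ribosomal proteins, the closest group by function, 71 of 75 genes were below 0, with a median of −0.09, which was 0.03, with 19 of 75 below 0, without the mitochondrially encoded genes. By limma 0 were called (2 at an unadjusted p under 0.05) and by limma-voom 0, and 1 was lower and 2 were higher without overlap of the groups, where 10.3% and 5.67% of all tested genes were. Of all tested genes 55.1% were below 0 and 10.7% had an unadjusted p under 0.05 by limma. The difference of the cytosolic genes from the members was not tested. The median standard error of the log2 fold change was 0.08 for the cytosolic genes and 0.06 for the members.

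The mitochondrially encoded partners of the ribosome had values of the opposite sign. The 16S rRNA of the large subunit, mt-Rnr2, was at 4270.7, 4298.4 and 4591.0 TPM in WT and 4694.8, 5109.0 and 4989.5 TPM in mKO, without overlap (0.17, SE 0.06, adjusted p = 0.344). The 12S rRNA of the small subunit, mt-Rnr1, was at 2882.1, 3035.9 and 3086.7 TPM in WT and 2842.6, 3266.7 and 3183.5 TPM in mKO, with overlap (0.04, SE 0.07, adjusted p = 0.876). Poly(A) selection captures rRNA only in part, so these levels are not those of the ribosome. Of the 13 mitochondrially encoded mRNAs, which this ribosome translates, 12 were above 0, with a median of 0.10 and 0 called by limma (3 at an unadjusted p under 0.05). By limma-voom on reads 2 of them were called (92 of 11204 genes), 10 had an unadjusted p under 0.05 (1294 genes), and the median was 0.15. On TPM 6 of the 13 were higher without overlap of the groups, where 5.67% of all tested genes were. An unadjusted p under 0.05 by limma was found for 10.7% of all tested genes. The largest log2 fold change on TPM was that of mt-Nd2, at 29808 ± 1546 TPM in the WT and 36953 ± 835 TPM in the mKO libraries (0.31, adjusted p = 0.131, limma). Because TPM has a fixed sum, higher mitochondrially encoded transcripts and lower nuclear transcripts cannot be told apart from these values.

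**Figure D5:**
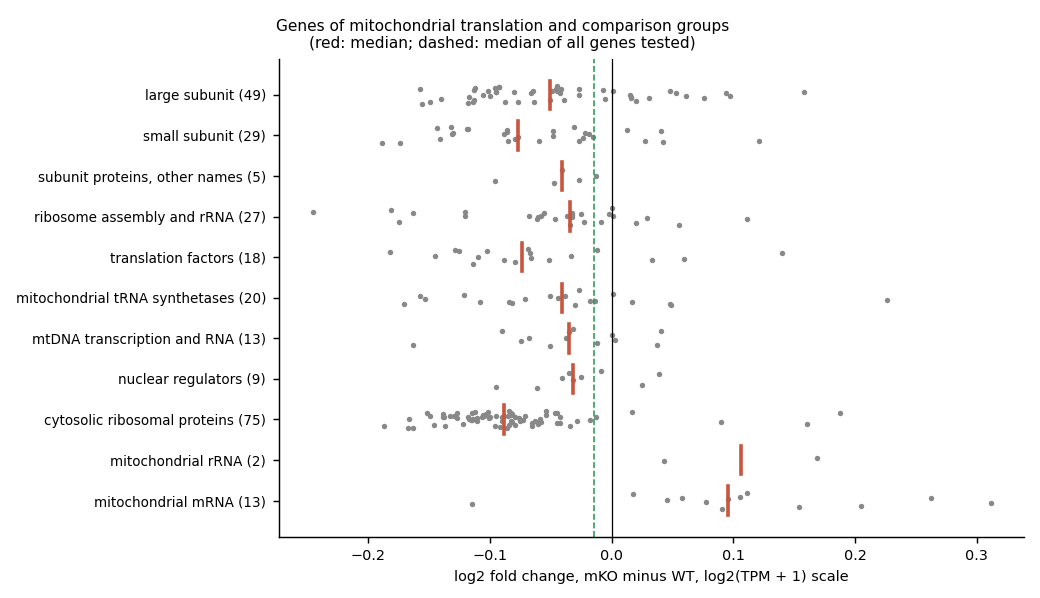
Log2 fold change (mKO minus WT, log2(TPM + 1) scale) of each gene of the mitochondrial translation system and of comparison groups, with the number of genes tested in brackets. Grey points are genes (vertical scatter has no meaning), red bars are group medians and the dashed line is the median of all genes tested (−0.01). Both subunits (−0.05 and −0.08) lie left of 0 with the other nuclear groups, and the mitochondrially encoded mRNAs (0.10) lie right of it. Without mitochondrially encoded genes in the scaling, the medians of both subunits turn to above 0 (0.07 and 0.04).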

How the data were processed

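Values are TPM as deposited by the authors, for 3 WT and 3 mKO libraries of soleus. Per the submitters' processing notes, reads were processed on GRCm39. Aligner, counter and strand setting: not given in the sources used here. Group and replicate number were read from sample labels. Members and gene lists were chosen with earlier results of these data known, so no list or score was tested. Differences were tested by limma-trend (version 3.58.1 in R 4.3.3), fitting group alone to log2(TPM + 1) for 12301 genes that reached 1 TPM in 3 libraries, with Benjamini-Hochberg adjustment over all of them and a threshold of 0.05. It was tested on simulated data whose changed genes had larger changes than any member. That test does not cover differences of the members' size. Fold changes on this scale understate those of low genes.

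TPM multiplied by exon length (GENCODE M21, matched by name) and by a scale per library gave whole reads within 0.05. These reads served for depth and for limma-voom. A read pair may count as 2 reads. Head-to-head neighbours and overlaps came from GENCODE M21 (GRCm38), used for gene order only. Promoters came from RefSeq (GRCm38.p6). Alternatives were other filters, pseudocounts and scalings, a replicate block, removal of mitochondrially encoded genes and removal of each library.

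Named members were, per subunit, the 4 of highest and 2 of lowest level, the 5 of smallest p, the 2 of largest and 2 of smallest log2 fold change, then the Mrps18 paralogues, Mrps30, Mrps36 and up to 6 of the disease list. Pathway lists gave up to 4 genes of smallest p, and regulators and rRNAs were also allowed. Examples of head-to-head partners and the cytosolic ribosomal genes were chosen after their values were seen.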

Additional observations from a re-analysis of the deposited data

How the results depend on the processing

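No setting called a member, and 0 of 78 were called throughout. With mitochondrially encoded genes left out, 16 members were below 0 in place of 60, and the medians of the large and small subunit were 0.0658 and 0.0363. By limma-voom these were 0.0002 and −0.0285. These rescalings shift all nuclear genes about alike. Leaving out each library in turn, large minus small lay between −0.0069 (without mKO replicate 1) and 0.0263, where 0.0261 was reported. Of 255 values of 17 named members over 15 other settings, 244 kept their direction, 11 changed it and 0 gained a call. Several settings could not change a direction or hardly could, so the count of 244 is no measure of stability. The filters and the replicate block left each value as it was, and the pseudocounts moved it little. The changes came from leaving out mitochondrially encoded genes, from limma-voom and from dropping a library. With mitochondrially encoded genes left out, Mrps18b, Mrps18c, Mrps30 and Mrps36 were at 0.0925, 0.1009, 0.0802 and 0.0281, and by limma-voom the first 3 were at 0.0261, 0.0402 and 0.0162. Leaving out 1 library gave −0.0844 to 0.0630 for Mrps18c, −0.0602 to 0.0079 for Mrps30 and −0.0418 to 0.1348 for Mrps2.

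Same-numbered libraries deviated together only weakly (correlations of 0.095, 0.047 and 0.131), so the numbers were not taken to pair the samples, although each library correlated best with its own number. With the replicate block 0 members were called, and over all genes 21 were called in place of 64. At the median depth of 1504 reads, counting error (0.0372 on the log2 scale) limits how small a difference can be seen, as does the number of libraries.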
